A study of Drosophila melanogaster with 2 samples.

Results

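The genes for the protein subunits of the cytosolic ribosome were taken from the protein-coding genes of Drosophila melanogaster by symbol: RpL, RpS or RpLP followed by a number and the letters A, a, B or b where present, plus sta and oho23B, which encode small-subunit proteins under other names. This gave 86 of the 13945 protein-coding genes on the 6 chromosome arms, 45 for the large subunit (60S), 38 for the small subunit (40S) and 3 for the stalk (RpLP0, RpLP1 and RpLP2). The annotation lists oho23B under the symbol RpS21. Their promoters were examined in chromatin immunoprecipitation followed by sequencing (ChIP-seq) of Meics, a C2H2 zinc finger protein named for the meiotic central spindle.

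Both samples came from a stably transgenic fly line in which Meics carries GFP at its C-terminus, which was precipitated through an antibody against GFP. Whole embryos of both sexes aged 0 to 24 hours were pooled, so every embryonic stage and cell type was mixed, and the promoter that drives the transgene is not stated. The 2 samples form 1 group and are labelled as biological replicates 1 and 3, so there is no second condition. The authors deposited 30000 regions per replicate, in which peaks and background are mixed, and a list of 7689 peaks thresholded by the irreproducible discovery rate (IDR). The IDR scores regions by the reproducibility of their ranks between lists. Per the deposited readme, the thresholded list was derived from the replicate and pooled lists, so a peak in it need not have a region in both replicate lists.

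The ribosome is built in the nucleolus from rRNA and 1 copy of most ribosomal proteins, and a fly that lacks 1 functional copy of many of these genes shows the Minute phenotype of slow development and short bristles. Ribosomal protein genes are among the most highly transcribed genes of growing cells. In Drosophila their transcription starts at a polypyrimidine initiator, the TCT motif, in place of the usual initiator, and many of their promoters hold sites for the zinc finger factors DREF (the DNA replication-related element, DRE) and M1BP (motif 1 binding protein).

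The promoters of 7 genes among the 10 with the highest Meics-GFP signal are shown first, since they carry the strongest peaks of the family and the TCT initiator. Each window holds the 120 bases before the annotated transcription start site (TSS) and the first 20 transcribed bases, read on the gene's strand from the RefSeq copy of the dm6 assembly. Where a gene has several TSSs, the one with a TCT word was used. Capitals mark TCT words whose C lies within 10 bp of the TSS (T or C, then CTTT, then T or C, on the gene's strand), CGATA, which is the core of the DRE, and GGTCACA, which is the first part of the M1BP motif. Both of the last 2 are marked on either strand, so that CGATA can read TATCG and GGTCACA can read TGTGACC. RpL41 and RpL19 are described by their values only. The windows lie at chr3R:25247453-25247592 on the minus strand for RpS27, chr2L:10200980-10201119 on the plus strand for RpL7, chr3L:1668635-1668774 on the minus strand for RpL23A and chr3L:8600886-8601025 on the plus strand for RpL14. The other windows are chr2L:13395073-13395212 on the minus strand for RpL24, chr3R:5624354-5624493 on the plus strand for RpL13A and chr3R:30046142-30046281 on the minus strand for RpL32.
RpS27: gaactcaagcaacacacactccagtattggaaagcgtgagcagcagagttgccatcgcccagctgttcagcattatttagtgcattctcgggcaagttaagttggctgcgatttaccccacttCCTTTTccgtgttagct
RpL7: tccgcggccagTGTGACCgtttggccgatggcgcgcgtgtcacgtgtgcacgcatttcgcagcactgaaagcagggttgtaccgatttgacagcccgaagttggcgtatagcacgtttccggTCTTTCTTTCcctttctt
RpL23A: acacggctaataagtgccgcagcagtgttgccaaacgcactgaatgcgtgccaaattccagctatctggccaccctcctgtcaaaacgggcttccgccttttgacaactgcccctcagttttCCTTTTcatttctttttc
RpL14: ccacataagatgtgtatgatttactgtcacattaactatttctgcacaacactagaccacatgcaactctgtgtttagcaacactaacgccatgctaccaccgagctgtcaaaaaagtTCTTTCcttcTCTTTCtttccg
RpL24: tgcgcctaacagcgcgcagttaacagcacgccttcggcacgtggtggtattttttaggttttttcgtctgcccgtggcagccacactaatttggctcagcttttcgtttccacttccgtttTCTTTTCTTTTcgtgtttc
RpL13A: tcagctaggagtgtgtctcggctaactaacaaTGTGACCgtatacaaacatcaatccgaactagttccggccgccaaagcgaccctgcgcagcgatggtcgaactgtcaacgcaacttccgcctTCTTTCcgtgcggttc
RpL32: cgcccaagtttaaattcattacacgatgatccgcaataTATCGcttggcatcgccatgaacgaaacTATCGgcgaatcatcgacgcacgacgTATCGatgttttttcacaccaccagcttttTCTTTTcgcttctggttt

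Nearly all of these genes had a Meics-GFP summit no more than 500 bp from a TSS. In the IDR-thresholded list, 76 of the 86 ribosomal protein genes had one (88.4%, with a Wilson 95% interval of 79.9% to 93.6%), while 3569 of the 13859 other coding genes did (25.8%). Over all coding genes the share was 26.1%. Among the 7689 strongest regions of each replicate, 77 of 86 ribosomal protein genes had a summit in replicate 1, where the share of all coding genes was 26.2%, and 75 of 86 in replicate 3, where it was 26.8%. The share over the replicates was 88.4% ± 1.64 for ribosomal protein genes and 26.1% ± 0.475 for other coding genes (SD, n = 2), so the gap was far wider than the spread between replicates. In the whole lists, background regions included, 83 of 86 had a region in replicate 1, against 45.9% of all coding genes, and 81 of 86 in replicate 3, against 48.5% of all coding genes. These shares are counts of genes in 1 set of peaks, and genes that share a promoter or a sequence are not independent. The sequencing depth of the libraries is unknown, and no library without the tagged protein and no RNA level was analysed here.

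**Figure D1:**
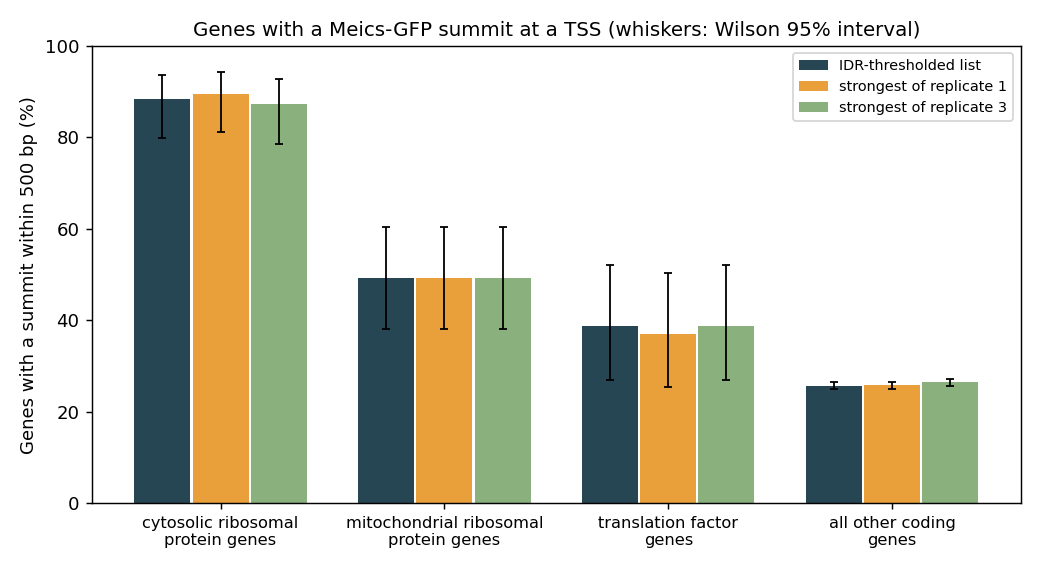
Percent of genes (y axis) with a summit within 500 bp of a TSS, by gene group (x axis), in the IDR-thresholded list and in the 7689 strongest regions of each replicate (bar colours); whiskers are Wilson 95% intervals. Cytosolic ribosomal protein genes stand at 88.4%, 89.5% and 87.2%, above mitochondrial ribosomal protein genes, translation factor genes and all other coding genes.

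The list of the mitochondrial ribosome, which is built from separate genes (symbols mRpL and mRpS), had a summit at 36 of 73 genes (49.3%). Translation factor genes, with symbols that start with eIF, eEF or eRF, had one at 21 of 54 (38.9%). Median signal values were 279.65 at the mitochondrial ribosomal protein genes and 412 at the translation factors, against 715 at the cytosolic ribosomal protein genes. Of 5 genes named as ribosomal protein-like, which fall outside the rule, RpLP0-like (228.7, at −56 bp from its TSS) and RpL7-like (180.9, at −425 bp) had a summit in the IDR-thresholded list, while 3 of the 5 had one among the strongest regions of replicate 1 and 1 of the 5 among those of replicate 3.

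The peaks at ribosomal protein genes were in the upper part of the list but were not its strongest. The signal value is the authors' own measure of each region, and its scale is not stated. It ran from 144.4 to 19876.5 over the whole IDR-thresholded list, with a median of 262. At the 76 ribosomal protein genes it ran from 184.8 to 2517, with a median of 715 and a median rank of 968, where rank 1 is the highest signal. Other coding genes with a summit had a median of 338 and a median rank of 2794. Of the 76, 68 were among the strongest 50% of peaks (89.5%), against 62.6% of other coding genes with a summit. In the strongest 25% there were 59 (77.6%), against 35.9% of the others, and in the strongest 10% there were 34 (44.7%), against 17.2% of the others. The −log10 q-value was at the ceiling of the list, 4.13, for all 76, as for 6671 of the 7689 peaks, and so could not rank them.

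**Figure D2:**
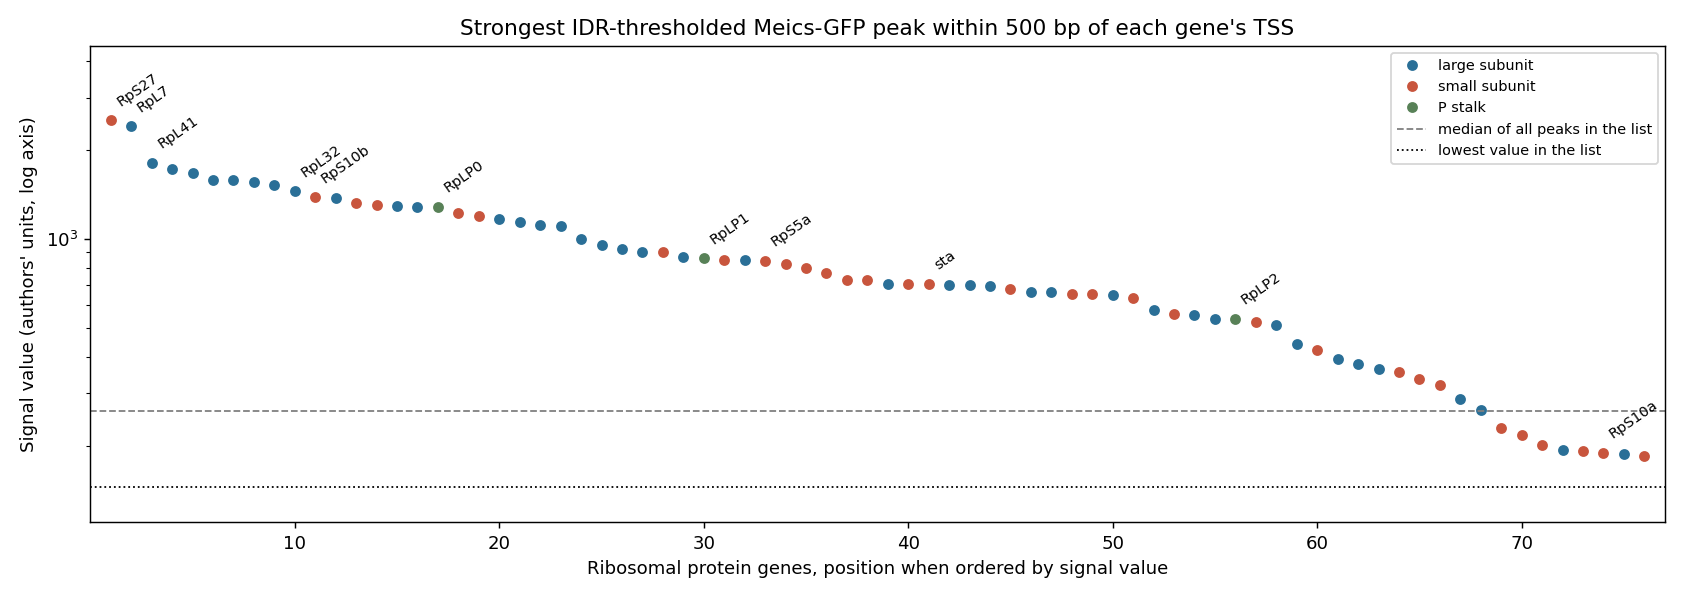
Signal value of the strongest IDR-thresholded peak within 500 bp of a TSS (y axis, authors' units, log scale) for the 76 ribosomal protein genes that have one (x axis, position when ordered by signal), coloured by subunit, with some of the genes described in the text named. The dashed line is the median of all 7689 peaks (262) and the dotted line the lowest value in the list (144.4); 68 genes lie in the stronger 50% of the list.

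Large-subunit genes had a summit in 41 of 45 cases (91.1%), with a median signal of 869. RpL7, a large-subunit protein, had a signal of 2409.7 in the IDR-thresholded list (rank 87), 1133 in replicate 1 (rank 65) and 1278 in replicate 3 (rank 112). RpL41, which encodes one of the shortest proteins of the ribosome, had 1814 (rank 172), with 756 in replicate 1 and 1062 in replicate 3. RpL23A, whose protein sits near the exit of the peptide tunnel, had 1729.6 (rank 191), with 737 in replicate 1 and 997 in replicate 3. All 3 ranked among the strongest 206 regions of each replicate.

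The next genes of the large subunit followed closely. RpL14 had 1668 in the IDR-thresholded list (rank 206), 704 in replicate 1 and 958 in replicate 3. RpL24, whose protein lies at the interface of the subunits, had 1588 (rank 229), with 613 in replicate 1 and 971 in replicate 3. RpL13A had 1584 (rank 230), with 679 in replicate 1 and 905 in replicate 3. RpL14 and RpL13A ranked higher in replicate 1 (202 and 221) than in replicate 3 (217 and 242), whereas RpL24 ranked higher in replicate 3 (212) than in replicate 1 (270).

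RpL19 had 1517 in the IDR-thresholded list (rank 256), with 636 in replicate 1 (rank 253) and 874 in replicate 3 (rank 257). RpL32, long used as a reference transcript in fly expression work under the name rp49, had 1450.02 (rank 272), with 563 in replicate 1 (rank 315) and 886 in replicate 3 (rank 251). With RpS27 first, the order of the top 4 genes was the same in both replicates, and that of the other 6 was not.

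Small-subunit genes had a summit in 32 of 38 cases (84.2%), with a median signal of 690.1. The interval for the small subunit (69.6% to 92.6%) overlapped that for the large subunit (79.3% to 96.5%). RpS27, a zinc-binding protein of the small subunit, had the highest signal of the whole family, with 2517 in the IDR-thresholded list (rank 75), 1137 in replicate 1 (rank 64) and 1393 in replicate 3 (rank 87). It was the only small-subunit gene of the top 10. RpS21, known as oho23B from its overgrowth mutants, had 906 (rank 643), with 354 in replicate 1 and 548 in replicate 3. The gene sta (stubarista), which encodes the small-subunit protein RpSA, had 702 (rank 989), with 265 in replicate 1 and 430.1 in replicate 3.

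The 3 stalk genes encode the acidic P proteins, which recruit translation factors to the large subunit, and each had a summit. RpLP0, which anchors the stalk to the ribosome, had 1286 (rank 334), with 547 in replicate 1 and 734 in replicate 3. RpLP1 had 859 (rank 703), with 364 in replicate 1 and 514 in replicate 3. RpLP2 had 536 (rank 1445), with 233 in replicate 1 and 317 in replicate 3. Their order was the same in both replicates.

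At the lower end, RpS9 had 184.8, RpL5 187.5, RpS10a 189.2 and RpS24 191.7, followed by RpL15 with 192.5, RpS13 with 200.1, RpS30 with 217.8 and RpS2 with 228.9. These 8 genes were the ones below the median of the list. RpL5, which carries the 5S rRNA into the large subunit, had 88.7 in replicate 1 (rank 5024). The nearest summit in the replicate 3 list was 214544 bp away, so that list was empty over a wide stretch around the gene. A peak of the IDR-thresholded list was thus not always matched by a region in both replicate lists.

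The remaining 10 genes had no IDR-thresholded summit within 500 bp. They were 5 members of paralog pairs and 5 single genes. The farthest summit counted was 162 bp from its TSS (RpS10a) and the nearest one not counted 880 bp (RpS19b), so the limit of 500 bp lay in a wide empty gap. Beyond RpS19b, the nearest summit was 1387 bp away at RpS28a, 1826 bp at RpS15Ab, 2925 bp at RpS5b and 47220 bp at RpL10Aa. Among single genes it was 1522 bp away at RpS3, 3124 bp at RpL40, 3514 bp at RpL6, 34337 bp at RpS26 and 98255 bp at RpL21.

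Most of these genes still had a weaker region in the replicate lists. RpS3, near the entry of the mRNA channel, had rank 8728 in replicate 1 (signal 54.8) and 14812 in replicate 3 (signal 47.5). RpL6 had rank 10125 in replicate 1 (47.9) and 7824 in replicate 3 (87.2). RpL40, whose protein is made as a fusion to ubiquitin, had rank 11332 in replicate 1 (43.2) and 8119 in replicate 3 (84.4). All of these ranks lie outside the 7689 strongest regions of their list. RpL21 had a region in replicate 1 only (rank 10824, 44.9). The nearest summit in replicate 3 was 71672 bp away, so that list was empty over a wide stretch around RpL21, not only at its promoter. RpS26, which lines the mRNA exit channel, had a stronger one in replicate 1 only, at rank 2528 with a signal of 155 at −123 bp, while the nearest summit in replicate 3 was 1823 bp away.

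Flies carry several ribosomal proteins as pairs of genes, and in most pairs 1 copy held the peak. The rule found 8 pairs, with a summit at both copies in 3 pairs and at 1 copy in 5, or at 11 of 16 genes in pairs, against 65 of 70 genes outside pairs. RpS5a had 843 in the IDR-thresholded list (379 in replicate 1, 467 in replicate 3), while RpS5b, the copy known for its expression in the female germline, had no summit there, 21.6 in replicate 1 (rank 26471) and 68.2 in replicate 3 (rank 10269). RpS19a had 796 (357 in replicate 1, 449 in replicate 3), while RpS19b, also known as a germline copy, had no region within 500 bp in any of the 3 lists.

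The same split was seen in the other 3 such pairs. RpS28b had 1192 in the IDR-thresholded list, while RpS28a had 49.1 in replicate 1 (rank 9853) and 79.7 in replicate 3 (rank 8664). RpS15Aa had 653, while RpS15Ab had 41.7 in replicate 3 (rank 16777) and no region in replicate 1. RpL10Ab had 362, while RpL10Aa had no region in any list. The copy with the peak had a TCT word at a TSS in all 5 of these pairs, and the copy without one had it only at RpS5b.

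In the 3 remaining pairs both copies had a peak. RpL34a had 1114 and RpL34b 1287, with ranks of 501 and 321 in replicate 1 and 427 and 356 in replicate 3. RpS10b had 1386 and RpS10a, known for its expression in the germline, 189.2, with ranks of 254 and 6221 in replicate 1 and 335 and 5970 in replicate 3. RpS14a had 523 and RpS14b 633, but these near-identical copies lie side by side with TSSs 1156 bp apart, and how reads that match both were placed is not given, so their values are uncertain. RpL37-1 and RpL37-2, which the symbol rule leaves out, were split like the first 5 pairs: RpL37-1 had 529 with its summit 13 bp upstream, and the summit nearest to RpL37-2 was 25677 bp away.

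The promoters of 2 of these pairs are set side by side because 1 copy had a strong peak and the other none. The windows follow the same rules, with the canonical TSS where no TSS carries a TCT word, at chrX:16637774-16637913 on the plus strand for RpS19a and chr3R:23933511-23933650 on the minus strand for RpS19b. RpS5a lies at chrX:17148245-17148384 and RpS5b at chr3R:14901544-14901683, both on the minus strand.
RpS19a: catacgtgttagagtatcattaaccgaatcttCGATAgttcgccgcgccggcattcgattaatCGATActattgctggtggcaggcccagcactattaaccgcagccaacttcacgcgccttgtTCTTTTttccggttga
RpS19b: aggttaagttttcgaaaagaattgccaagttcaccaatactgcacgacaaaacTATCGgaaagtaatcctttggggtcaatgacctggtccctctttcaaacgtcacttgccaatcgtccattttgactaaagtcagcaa
RpS5a: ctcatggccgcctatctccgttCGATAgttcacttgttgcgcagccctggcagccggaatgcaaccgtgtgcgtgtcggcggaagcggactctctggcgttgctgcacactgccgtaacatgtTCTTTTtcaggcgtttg
RpS5b: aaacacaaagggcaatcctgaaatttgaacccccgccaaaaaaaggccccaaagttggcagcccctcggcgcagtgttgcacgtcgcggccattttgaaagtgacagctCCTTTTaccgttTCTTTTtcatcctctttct

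RpS19a held CGATA at 2 places and a TCT word, and RpS19b held CGATA at 1 place and no TCT word near its TSS. RpS5a held CGATA at 1 place and a TCT word, and RpS5b held TCT words and no CGATA. The letters therefore differed between copies, but in these 2 pairs neither motif alone separated the copy with a peak from the copy without.

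The summits lay close to the TSS, just upstream of it. Their median position relative to the gene's nearest TSS was −24.5 bp (quartiles −44.75 and −2.5 bp, where negative is upstream). Of the 76, 58 lay upstream (76.3%), 2 at the TSS and 16 downstream. Summits of other coding genes had a median of −133 bp (quartiles −241 and −55 bp), and 3023 of the 3569 lay upstream (84.7%). An upstream position was thus no more frequent at ribosomal protein genes than at other coding genes. Within 50 bp of a TSS there were 58 of the 76 summits at ribosomal protein genes (76.3%), against 531 of the 3569 at other coding genes (14.9%). Within 100 bp there were 72 (94.7%), against 1182 (33.1%). The median position was −22 bp in replicate 1 and −17 bp in replicate 3 for ribosomal protein genes, and −145 bp and −128 bp for other coding genes. Ribosomal protein genes had a median of 2 annotated TSSs and other coding genes 1, which gives a summit more chances to be near one. With the canonical TSS alone the medians were −30.5 bp and −133 bp, and 88.2% of the ribosomal protein genes and 31.7% of the others had the summit within 100 bp.

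**Figure D3:**
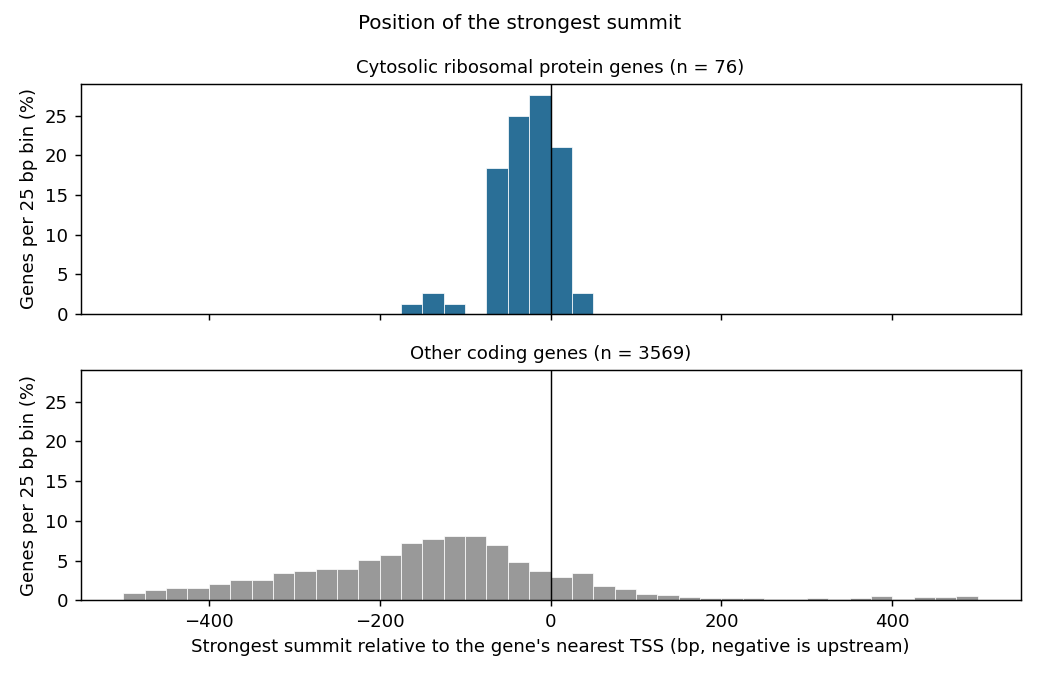
Position of the strongest summit relative to the gene's nearest TSS (x axis, bp, negative upstream) as percent of genes in each 25 bp bin (y axis), for the 76 ribosomal protein genes in the upper panel and the 3569 other coding genes in the lower. The upper distribution runs from −162 to 43 bp. The lower one is wider, with quartiles of −241 and −55 bp and 543 of the 3569 summits downstream.

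The farthest upstream were RpS10a at −162 bp, RpS20 at −144 bp and RpL23 at −135 bp. The farthest downstream were RpL7 at 43 bp, RpS30 at 33 bp and RpS15 at 21 bp. The summit of RpL7 lay 43 bp inside the gene by its first TSS, but 53 bp upstream of the TSS that carries the TCT word, in the window printed above. RpS27 was alike, with its summit 1 bp from its nearest TSS and 41 bp upstream of the TSS with the TCT word. For all 76 genes the gene's own TSS was the nearest of any coding gene, and the 76 peaks were distinct. No summit lay in the body of a ribosomal protein gene more than 500 bp from its TSSs. These genes are short, with a median length of 1344.5 bp against 2178 bp for other coding genes. Such summits were not counted at other coding genes.

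A further, weaker summit within 500 bp was found at 12 of the 76 genes, each time upstream. The share of other coding genes with a further summit was not counted, so this number has no background beside it. At RpL28 the second summit had a signal of 655 at −269 bp, nearest to the translation initiation factor gene eIF1. The second summit was also nearest to another gene at RpS27 (286, toward Nup37), RpL36 (165.3, toward Mybbp1A), RpL34a (161.1, toward Trmt61), RpL34b (202, toward CG8132) and RpL10Ab (264, toward CG5946 and CG11597). RpS6, whose protein is phosphorylated by the growth-regulated S6 kinase, had 2 further summits, of 281 at −201 bp and of 171 at −406 bp. The coding gene nearest to the latter was the neighbour bys. At RpL27A, RpS5a and RpS7 the further summit, between −254 and −172 bp, was still nearest to the ribosomal protein gene itself.

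Ranks in the replicate lists were close. A region within 500 bp was present in both whole lists for 80 genes, in replicate 1 only for 3, in replicate 3 only for 1 and in neither for 2. Across the 80 genes the Spearman correlation of the ranks was 0.973, and across the 75 of them with an IDR-thresholded summit it was 0.968, given as a description, since the thresholding itself uses the ranks in the replicates. Among those 75, the ranks differed by less than 1.5 times for 68 (90.7%), against 2649 of 3475 other coding genes with a summit (76.2%). Peaks at ribosomal protein genes were stronger (median rank 968, against 2794 at other coding genes with a summit), and genes of like strength were not compared. The summits of the 2 replicates were a median of 14 bp apart, and at most 20 bp apart at 56 genes. The gap passed 100 bp at 4 genes and was widest at RpL10Ab, with 285 bp. Its summit lay at −310 bp in replicate 1 and at −25 bp in replicate 3. The IDR-thresholded list held separate summits at −36 and −299 bp there, the latter nearest to CG5946 and CG11597. Different peaks were therefore probably compared at RpL10Ab.

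**Figure D4:**
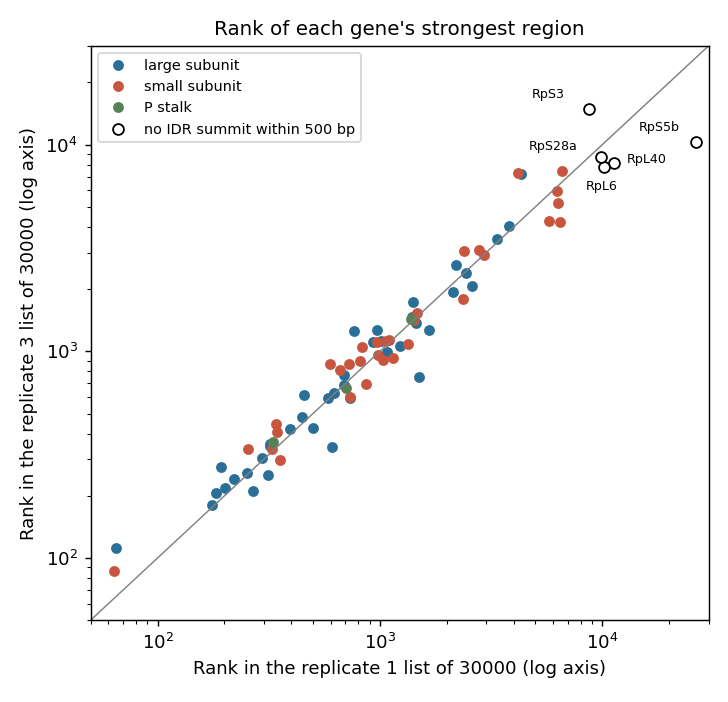
Rank of each gene's strongest region in the replicate 1 list (x axis) and the replicate 3 list (y axis), both of 30000 regions and on log scales, for the 80 ribosomal protein genes with a region in both lists; colours give the subunit and open circles the genes without an IDR-thresholded summit. Points follow the line of equal ranks, and the 5 open circles lie beyond rank 7689 in both lists.

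The largest ratios of the replicate 1 rank to the replicate 3 rank were 2.58 at RpS5b, 1.99 at RpL3 and 1.76 at RpL13. RpL3, whose protein lies near the peptidyl transferase centre, had a signal of 220 in replicate 1 (rank 1500) and 487 in replicate 3 (rank 753). RpL13 had 394 (rank 609) in replicate 1 and 748 (rank 346) in replicate 3. The smallest ratios were 0.572 at RpS13, 0.58 at RpL7 and 0.589 at RpS3. RpS13 had 103.5 (rank 4189) in replicate 1 and 92.6 (rank 7318) in replicate 3, and so was near the end of the 7689 strongest regions in replicate 3.

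A TCT word near an annotated TSS marked most of the family. A TCT word with its C within 10 bp of a TSS was found at 72 of 86 ribosomal protein genes (83.7%, with a Wilson 95% interval of 74.5% to 90.05%), while 498 of the other coding genes had it (3.59%). With the C within 2 bp of the TSS there were 16 (18.6%), against 0.75% of the other coding genes, and with the C at the TSS base itself 2. The median of 2 TSSs at ribosomal protein genes, against 1 at other coding genes, gives a word more chances to be near one. At the canonical TSS alone 52 of 86 ribosomal protein genes had the word (60.5%), and the matching share of other coding genes is not given. An IDR-thresholded summit was present at 66 of the 72 with a TCT word and at 10 of the 14 without one. Among other coding genes with a TCT word 183 of 498 had a summit (36.7%), against 25.3% of those without one. Genes without the word included RpL10Aa, RpL12, RpL17, RpL26, RpL34a, RpS10a, RpS12, RpS15Ab, RpS19b, RpS2, RpS20, RpS28a and sta.

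Most summits lay upstream of the TCT word. At the 66 genes with both, the median was 38 bp upstream of the C (quartiles −55.75 and −23.25 bp), and 60 summits lay upstream. A summit within 100 bp upstream of the C was found at 58 of the 66 (87.9%), against 23 of the 183 other coding genes with both (12.6%). The distance ran from −141 to 17 bp at the 66 genes and from −78143 to 119375 bp at the 183. In some of the 183 the word and the summit therefore lay at different TSSs, which lowers the share of 12.6%. In the printed windows the summit was 41 bp before the TSS for RpS27, 53 bp for RpL7, 73 bp for RpL23A, 38 bp for RpL14, 51 bp for RpL24, 68 bp for RpL13A and 56 bp for RpL32.

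Motifs were searched on both strands within 50 bp to each side of each summit. The full DRE, TATCGATA, was found in 19 of the 76 windows of ribosomal protein genes (25%, with a Wilson 95% interval of 16.6% to 35.8%), against 5.18% of the windows of other coding genes with a summit within 100 bp of the TSS and 2.68% of all other promoter summits. The shorter CGATA, which is contained in it, was found in 35 windows (46.1%), against 29.9% and 19.5%. Among promoters of 300 bp, from 250 bp before the canonical TSS to 50 bp after it, TATCGATA was found at 29.1% of ribosomal protein genes and 8.81% of other coding genes, and CGATA at 70.9% and 46.8%. The full DRE lay under the summit at RpL41 and RpL19, both among the 10 strongest genes. CGATA lay there at RpL32 as well, where the window printed above holds it 3 times.

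The M1BP motif was less frequent. GGTCACACT was found in 7 summit windows of ribosomal protein genes (9.21%), against 2.73% of windows of other coding genes with a near summit and 1.13% of all other promoter summits. These were RpLP0, RpLP1, RpL37A, RpL27A, RpS23, RpS15 and RpS9. GGTCACA, contained in it, was found in 10 windows (13.2%), against 4.05% and 2.15%. In promoters of 300 bp, GGTCACACT was found at 11.6% of ribosomal protein genes and 5.83% of other coding genes, and GGTCACA at 18.6% and 9.4%. CGATA or GGTCACA was found in 43 summit windows (56.6%), against 20.8% of all other promoter summits, and both in 2, so 33 windows held neither. The 7 windows printed for the strongest genes are placed by the TSS and not by the summit. Among them, RpS27, RpL23A, RpL14 and RpL24 have neither word. RpL7 has GGTCACA in its printed window but neither word in its summit window.

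Signal ranks were close with and without these words. The median rank of ribosomal protein genes was 955 with TATCGATA in the window and 981 without it, 982 with CGATA and 945 without it, and 858 with GGTCACA and 968 without it.

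**Figure D5:**
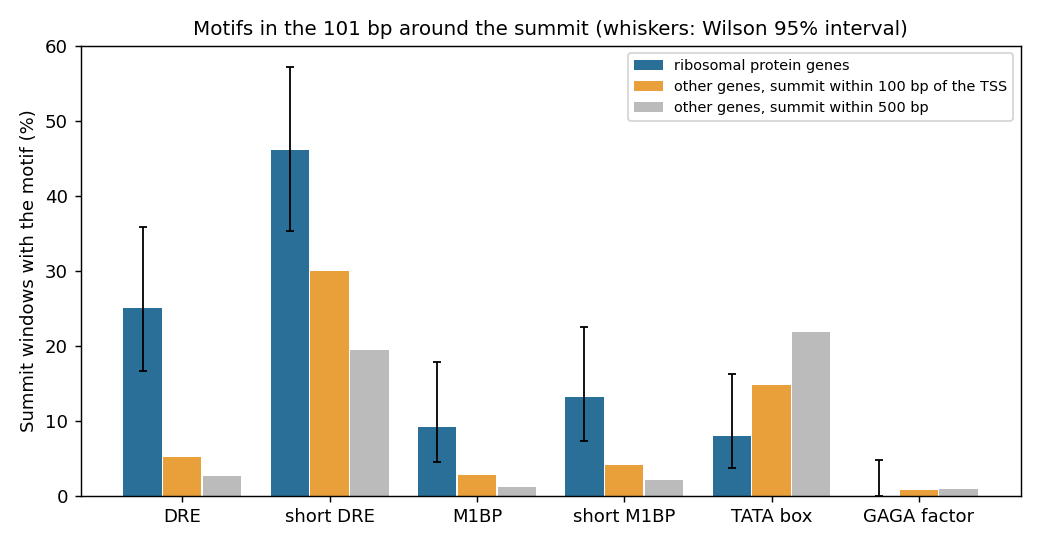
Percent of windows of 50 bp to each side of the summit with each motif (y axis, both strands) at ribosomal protein genes (76 windows), at other coding genes with the summit within 100 bp of the TSS (1062 windows) and at all other promoter summits (2654 windows); whiskers on the first bars are Wilson 95% intervals. The DRE stands at 25% against 5.18% and 2.68%, while the TATA box stands at 7.89% against 14.8% and 21.9%.

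Other words were scarce. TATAAA was found in 6 summit windows of ribosomal protein genes (7.89%), against 14.8% of windows of other coding genes with a near summit and 21.9% of all other promoter summits, but its shares in the promoters of 300 bp were 47.7% and 45.2%. GAGAGAG, a word bound by the GAGA factor, was found in 0 of 76 windows (Wilson upper limit 4.81%), against 0.753% and 0.942%. GTGACGAA or GTAACGAA, a pair of words picked earlier as frequent under these same peaks, was also found in 0 of 76, against 2.45% and 2.11%. The windows differed in base composition, which moves the frequency of any word. The median GC content was 47.5% at ribosomal protein genes, 41.1% at other coding genes with a near summit and 33.7% at all other promoter summits, and its part in these shares was not tested.

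Of all words of 7 bases seen in the windows of ribosomal protein genes, 3878 in number with a word and its reverse complement counted as 1, those with the widest difference in share from the other promoter summits were chosen after their values were seen. ATCGATA, part of the DRE, came first, with 32.9% of the windows of ribosomal protein genes and 5.84% of the others. TTCTTTT, which holds a TCT word, had 30.3% and 5.35%. Among words outside the DRE and the TCT word were CCGGAAA, with 21.1% against 1.32%, CGTTTCC, with 17.1% against 0.942%, and GCAGCCA, with 17.1% against 1.7%. Against the other coding genes with a summit within 100 bp of the TSS, restricted alike, the shares were 22.2% against 2.54% for CCGGAAA, 18.1% against 1.22% for CGTTTCC and 18.1% against 2.92% for GCAGCCA. The window of RpL24 holds CGTTTCC and GCAGCCA in the stretch before its TCT word.

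The 72 ribosomal protein genes with a summit within 100 bp of the TSS had a median signal of 715 and a median rank of 968. The 1182 other coding genes with a summit as near had a median of 260.1 and a median rank of 3882.

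Many ribosomal protein genes share their promoter with a neighbour. Another coding gene started on the opposite strand within 500 bp upstream at 34 of the 86, against 27.3% of other coding genes. A summit was present at 31 of these 34 (91.2%) and at 45 of the 52 without such a neighbour (86.5%), against 44.6% and 18.7% of other coding genes. The median signal of ribosomal protein genes with a summit was 999 with such a neighbour and 653 without. RpL7 starts 30 bp from Ripalpha, sta 66 bp from inc and RpL14 127 bp from Nelf-E. RpS27 starts 144 bp from Nup37, a gene of the nuclear pore. RpL13 starts 84 bp from Dref, the gene of the DRE-binding factor itself, and their shared interval held a peak with a signal of 1143 (rank 431), 6 bp upstream of the RpL13 TSS. A peak in such an interval cannot be assigned to 1 gene by position alone.

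Introns of ribosomal protein genes often carry small nucleolar RNAs (snoRNAs), which guide the modification of rRNA. Of 269 annotated snoRNA genes, 76 lay within 29 ribosomal protein genes on the same strand, with 14 in RpS5a and 7 in RpS7. Other coding genes hosted one in 0.397% of cases. A summit was present at 29 of the 29 ribosomal protein hosts and at 47 of the 57 without a snoRNA (82.5%), against 32 of the 55 other host genes (58.2%) and 25.6% of other coding genes without one. The median signal was 724 at ribosomal protein hosts and 698 at those without a snoRNA.

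Across the chromosome arms, all 14 genes on X, all 14 on 3L and the single gene on the fourth chromosome had a summit, as did 17 of 18 on 2R, 14 of 17 on 2L and 16 of 22 on 3R. The genes without one on 3R were RpS19b, RpL10Aa, RpS28a, RpS5b, RpS3 and RpL6. In each of these arms other coding genes had a summit in 11.4% to 26.7% of cases.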

How the data were processed

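Chromatin of 2 embryo samples in 1 group was sonicated to fragments of 200 to 800 bp, per the labels. The authors deposited narrowPeak lists on dm6 and dm3; the dm6 lists were used. Per the readme deposited with the samples, replicate lists were derived from alignments and 1 further file whose content is not stated there, and the IDR-thresholded list from the replicate and pooled lists. The aligner, peak caller and IDR cutoff, and how values were scaled, were not given in the sources used here. The deposited signal value (column 7) was used to describe and rank regions within a list, and the deposited −log10 q-value (column 9) was read but not used for ranking. Depth of sequencing is not known, and a control library was not used here. The labels call the replicates biological but do not say how the embryos were collected for each.

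Genes and TSSs came from the Ensembl release 115 annotation of BDGP6.54, on the dm6 assembly, and sequence from the RefSeq copy of it (91 of 91 start codons of these genes read ATG). Positions count from 1. A gene was credited with the strongest summit within 500 bp of any of its TSSs. A divergent neighbour is a coding TSS on the other strand within 500 bp upstream. Intervals are Wilson 95% intervals and cover counting error only. With 1 group, no test between conditions was made, and no gene-set test. On simulated lists the assignment returned 336 of 336 gene and summit pairs and 145 of 145 planted distances.

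The members, lists, words and windows were chosen with earlier results of these data known. Genes named are the 10 with the highest signal, those without a summit, paralog pairs, stalk genes, sta and oho23B, the 3 largest and 3 smallest ratios of replicate ranks, the 3 farthest summits each way and genes with several summits; the 8 genes below the median of the list, neighbours, snoRNA hosts and motif holders were named after their values were seen. Some genes that these rules pick are not reported here. Alternatives changed the window, the TSS, the list, the symbol rule and the motif span. The work ran in Python 3.11.15 with pandas 2.3.3, numpy 2.4.6, matplotlib 3.10.9 and scipy 1.17.1.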

Additional observations from a re-analysis of the deposited data

How the results depend on the processing

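Over 7 values 36 alternatives were tried. In 29 of them a count stayed within 1.5 times the reported one, or a median or share moved by no more than the SD between the 2 replicates. The count of ribosomal protein genes with a summit was 76 with a window of 200 bp, 77 with 1000 bp, and 75 to 77 when either replicate was left out. It was 68 in the stronger 50% of the list, and 45 of 52 when genes with a divergent neighbour were left out, which has fewer genes by construction. Leaving out a replicate gave a median signal percentile of 87.9 to 88.3, against 87.4 as reported, a median summit position of −22 to −17 bp, against −24.5 bp, and an upstream share of 70.7% to 77.9%, against 76.3%. With the canonical TSS alone the median position was −30.5 bp. Divergent neighbours numbered 53 within 1000 bp, against 34. The TCT word was found at 53 genes within 5 bp, 79 within 25 bp and 52 at the canonical TSS, against 72. CGATA or GGTCACA was found in 32 windows of 25 bp to each side and 55 of 100 bp to each side, against 43. For summits within 100 bp of the TSS, a restriction chosen after seeing the data, the median percentile was 87.4 and 43 of 72 windows held either word. No paired analysis was possible because the samples form 1 group. Without depth or a control library, signal values set no enrichment over background.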
